A study of Mus musculus with 2 samples.

Results

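The genes described here encode dermal proteoglycans of mouse skin: decorin (Dcn), biglycan (Bgn), asporin (Aspn), lumican (Lum), fibromodulin (Fmod), the protein PRELP (Prelp), osteoglycin (Ogn) and versican (Vcan). They were chosen by symbol, and all 8 were among the 19465 genes counted. Transcripts were measured by spatial sequencing (Visium CytAssist) in 2 sections of fixed dorsal skin, each 10 μm thick, 1 from an S1pr2 fl/fl mouse and 1 from a mouse of genotype S1pr2 fl/fl K14-Cre, where Cre is driven by the keratin 14 promoter, active in keratinocytes. Both mice carried the floxed S1pr2 allele (S1pr2 encodes a receptor for sphingosine 1-phosphate), and both were treated with imiquimod (IMQ), which induces psoriasis-like inflammation: 62.5 mg of 5% cream each day for 7 days at 8 weeks of age, after depilation 1 day earlier. These are called the fl/fl and the K14-Cre section. With 1 section per genotype the differences between the sections have no replicate check, no test was possible, and effects of genotype, animal, position on the back and section cannot be told apart.

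The fl/fl section held 1203 connected tissue spots with 5291783 unique molecular identifiers (UMIs, tags of captured molecules) and the K14-Cre section 970 spots with 2845041 UMIs, medians of 3835 and 2342.5 per spot. S1pr2 itself had 154 UMIs in the fl/fl section and 54 in the K14-Cre section over all layers, which does not measure the deletion in keratinocytes. The sections differed in tissue content: the list of 15 keratinocyte genes summed to 46237 CPM (UMIs per 1000000 UMIs of the same spots) against 14574, and the list of 10 skeletal muscle genes to 19262 CPM against 66959. As a background for genes with few UMIs, 1226 chemosensory receptor genes were used, taken as mostly silent in skin, which was not tested. They had a mean of 11.7 UMIs per gene in the fl/fl section and 17.0 in the K14-Cre section. A spot covers several cells, and fewer cells of a type cannot be told apart from less RNA per cell.

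Proteoglycans of the dermis are made mainly by fibroblasts. The small leucine-rich members bind collagen fibrils and set their diameter and spacing, and several of them also bind growth factors such as TGF-β. They fall into classes by sequence: decorin, biglycan and asporin in class I, lumican, fibromodulin and PRELP in class II, and osteoglycin in class III. Versican is of another kind, a large chondroitin sulphate proteoglycan that binds hyaluronan and makes the matrix swell with water. Col1a1, the reference for all of them here, encodes the α1 chain of type I collagen, the main fibril of the dermis.

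Several of these genes are neighbours in the genome (RefSeq, GRCm38.p6, the mm10 assembly, in which all 8 were found). Dcn (chr10:97479500-97518163) is followed by Lum (chr10:97565501-97572703), and Prelp (chr1:133910304-133930102) by Fmod (chr1:134037254-134048280). Aspn (chr13:49544443-49567565) and Ogn (chr13:49608015-49624501) are separated by 1 protein-coding gene, Omd. Vcan (chr13:89655309-89743027) lies on the same chromosome far from them, and Bgn on X (chrX:73483601-73495936). The 250 bases before the start of Aspn (chr13:49544193-49544442, plus strand) and of Ogn (chr13:49607765-49608014, plus strand) are shown because these neighbours had similar patterns with depth in the results that follow. Capitals mark TATAAA or its reverse complement TTTATA, which overlap in Ogn.
Aspn: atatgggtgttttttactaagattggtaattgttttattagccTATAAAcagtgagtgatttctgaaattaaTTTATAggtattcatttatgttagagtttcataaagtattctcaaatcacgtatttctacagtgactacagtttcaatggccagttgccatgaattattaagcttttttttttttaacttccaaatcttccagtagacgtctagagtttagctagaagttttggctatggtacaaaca
Ogn: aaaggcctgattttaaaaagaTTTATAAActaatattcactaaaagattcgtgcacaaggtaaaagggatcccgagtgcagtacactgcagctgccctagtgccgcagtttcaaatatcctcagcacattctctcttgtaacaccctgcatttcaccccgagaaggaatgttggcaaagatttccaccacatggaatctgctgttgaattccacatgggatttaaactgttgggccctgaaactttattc
The matches begin 207 and 178 bases before the start in Aspn and 229 and 227 bases before it in Ogn. Bgn, Fmod, Prelp and Vcan held no match in the same window, and 12.4% of the 32851 RefSeq promoters did. The motif CCAAT or its reverse complement, also searched for, began 229 bases before the start of Aspn, 103 before that of Vcan and 15 before that of Prelp, and 33.8% of all promoters held it. For Prelp and Vcan the start is that of the RefSeq promoter entry, which lies inside the gene span given here. The G+C content of the window was 30% for Aspn and 42.0% for Ogn, against 51.2% to 64.4% for the other 4 members with a promoter entry and a median of 52.4% over all promoters. These are descriptions of the sequence, and no factor's binding was measured.

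Skin depth was counted in steps of 1 spot spacing from the nearest surface spot, an edge spot rich in keratinocyte transcripts: 0 for the surface spots (152 in the fl/fl section and 140 in the K14-Cre section), then 1, 2 and 3, and 4 for all deeper spots. The keratinocyte list, which was used to find the surface, went from 105227 CPM at step 0 to 17447 at step 4 and over in the fl/fl section and from 50334 to 1585 in the K14-Cre section. A surface spot also had to be higher in the keratinocyte than in the skeletal muscle list, each relative to the section. The low muscle value at step 0 is thus partly set by this choice. The skeletal muscle list went the other way, from 1070 to 46142 CPM and from 2061 to 133319, so the deepest step is rich in muscle transcripts. Levels of different genes are not compared, since the number of probes per gene is not known. Intervals are 95% and cover counting error only.

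**Figure D1:**
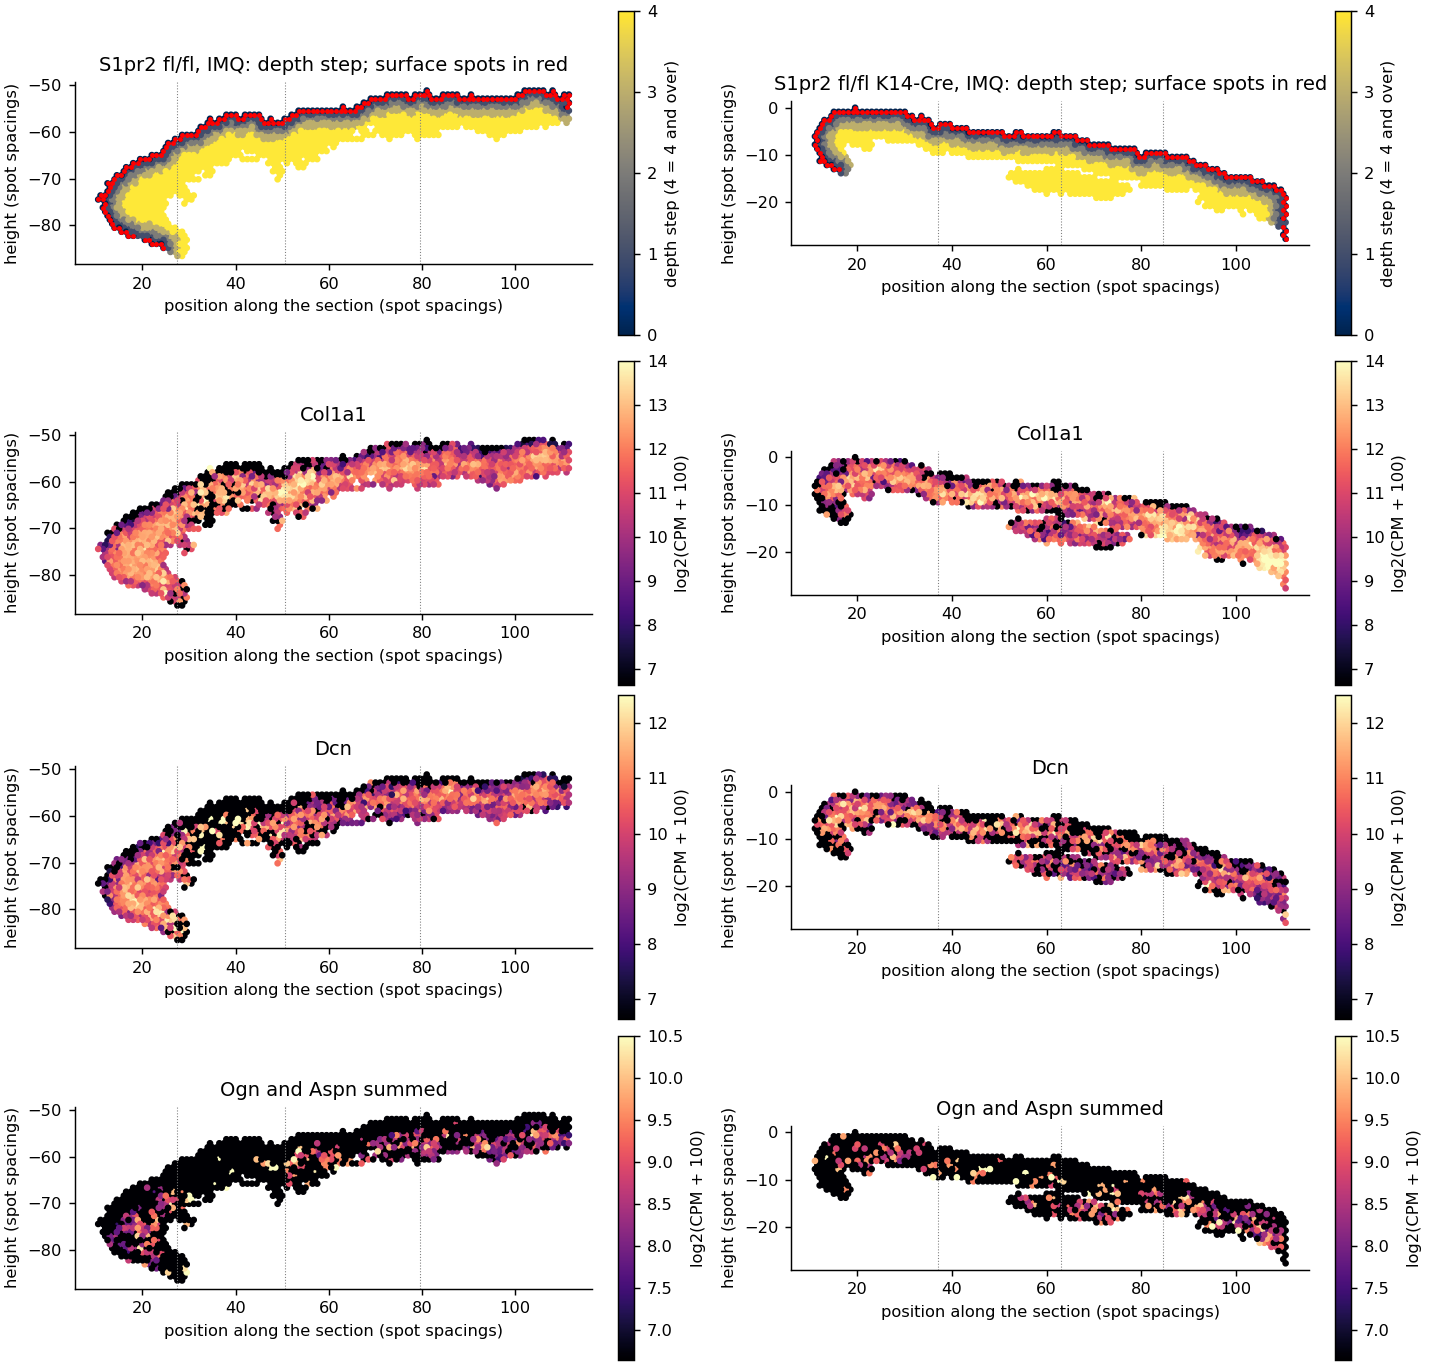
Maps of both sections with each spot at its place on the array (axes in spot spacings), the fl/fl section on the left and the K14-Cre section on the right. The rows show depth step with surface spots in red, then Col1a1, Dcn, and Ogn plus Aspn as log2(CPM + 100), and dotted lines part 4 segments with equal numbers of spots. Dcn and Col1a1 were low along the surface, Ogn and Aspn lay mostly in the deeper spots, and the brightest Col1a1 lay at the right end of the K14-Cre section.

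All 8 transcripts were less abundant at the surface than in the deeper skin of the fl/fl section. Dcn, which encodes the main small proteoglycan on dermal collagen fibrils, stood at 234, 525, 1002, 1436 and 1212 CPM from step 0 to step 4 and over. Lum, which codes for a keratan sulphate proteoglycan that limits fibril growth, stood at 119, 280, 502, 761 and 654 CPM. Both were lowest at the surface. With the deepest spots divided further, Dcn was highest at step 4, with 1737 CPM, as was Lum, with 820. Bgn, which encodes a close relative of decorin, was higher still in the deepest step, at 28.1, 94.7, 227, 334 and 439 CPM. Prelp, whose product links basement membranes to collagen, had 32.3, 72.2, 128, 157 and 190 CPM and thus the same order of steps.

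Ogn and Aspn lay mostly in the deeper steps of the fl/fl section. Ogn, whose product takes part in collagen fibril assembly, stood at 9.83, 4.51, 19.2, 75.9 and 99.0 CPM, so that 25% of its UMIs lay at step 3 and 66.1% deeper. Aspn, which encodes a TGF-β-binding relative of decorin, stood at 7.02, 7.89, 29.4, 66.6 and 88.2 CPM, with 63.5% of its UMIs at step 4 and over. Vcan had 11.2, 15.8, 35.8, 87.4 and 92.3 CPM. Steps 3 and over were set against steps 0 and 1 as deep against superficial skin: the log2 ratio of CPM was 3.73 for Ogn (2.87 to 4.75), 3.43 for Aspn (2.6 to 4.41), 2.72 for Vcan (2.09 to 3.42) and 2.64 for Bgn (2.34 to 2.94), beside 1.70 for Dcn, 1.72 for Prelp, 1.73 for Lum and 1.80 for Col1a1. All 8 members were at least 2-fold higher in the deep skin, as were 29.1% of the 11722 genes that reached 30 UMIs, and no member was 2-fold lower, as 5.93% were. The median log2 ratio of those genes was 0.44.

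The same direction was measured in the K14-Cre section, with a different shape for some members. Dcn stood at 303, 687, 1009, 1407 and 709 CPM from step 0 to step 4 and over, highest at step 3 and already at 733 at step 4 when the deepest spots were divided further. Lum had 64.0, 204, 488, 578 and 360 CPM, and Prelp 27.8, 57.2, 173, 188 and 100, and both were also highest at step 3. Bgn was higher at each further step, with 77.9, 128, 145, 259 and 280 CPM. Ogn had 13.9, 19.1, 58.5, 118 and 127 CPM and Aspn 5.56, 21.8, 44.6, 123 and 100. For deep against superficial skin, 6 members were at least 2-fold higher (17.6% of 11566 genes), and Dcn with a log2 ratio of 0.90 and Fmod with 0.25 were not. No member was at least 2-fold lower, as 21.4% of genes were. The median over all genes was -0.08 in this section.

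**Figure D2:**
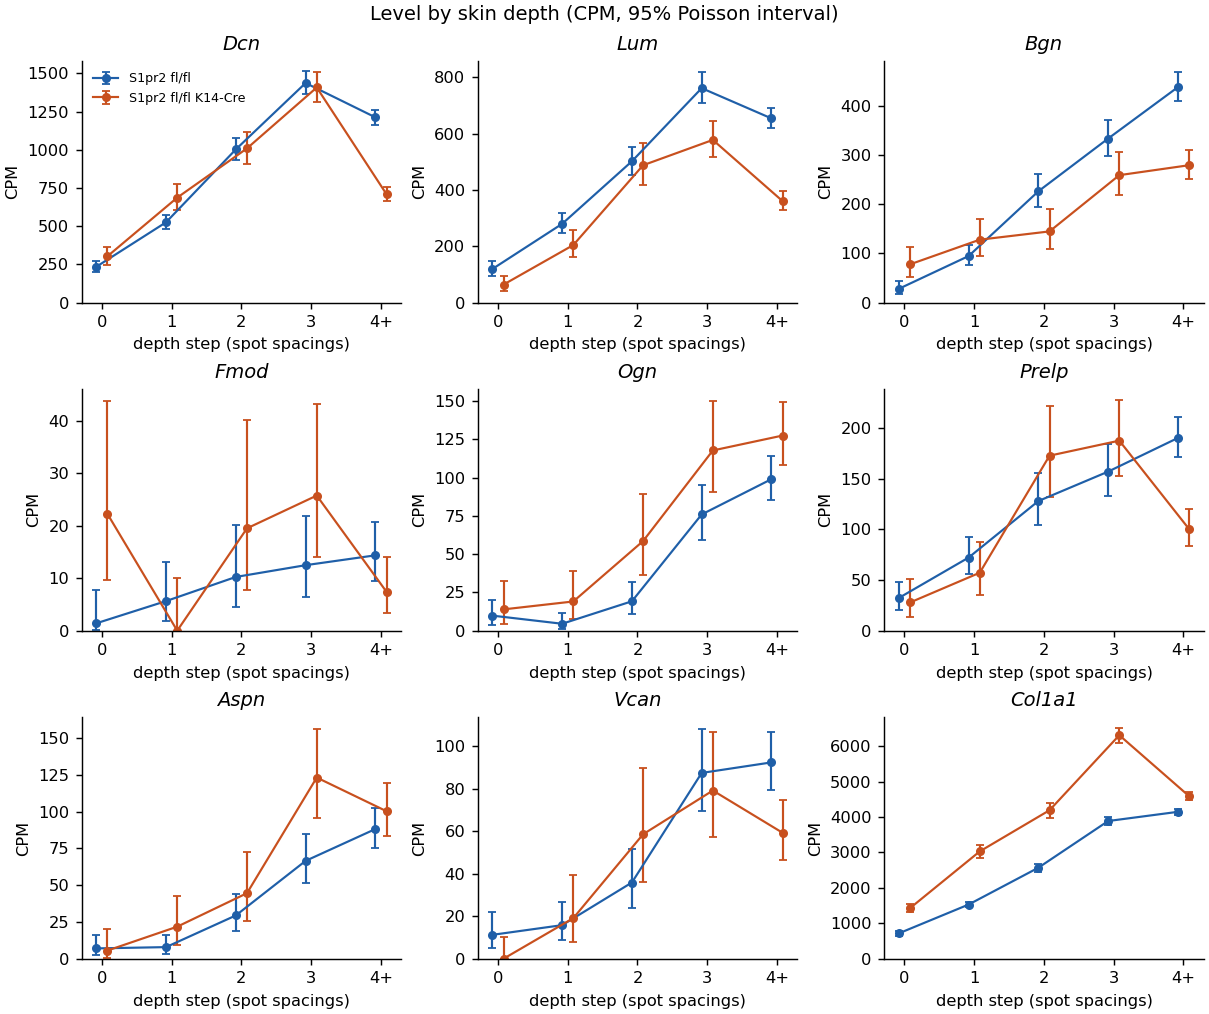
CPM of the 8 members and Col1a1 (vertical axes, linear) by depth step (horizontal axis, in spot spacings) in the fl/fl section (blue) and the K14-Cre section (orange), with 95% Poisson intervals. All 8 members were lowest at step 0 or 1 in both sections, and Dcn at step 4 and over stood at 1212 CPM against 709.

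Superficial counts of the rarer members were within the background in the K14-Cre section, whereas in the fl/fl section those of Ogn, Aspn and Vcan lay above it. In the superficial steps of the K14-Cre section, Ogn had 12 UMIs, Aspn 10, Fmod 8 and Vcan 7, and 95% of the receptor genes had at most 15 there. In the fl/fl section Ogn had 11, Aspn 12, Vcan 22 and Fmod 6, where 95% of the receptor genes had at most 6. The receptor genes averaged 6.73 UMIs per gene in the superficial K14-Cre skin and 2.34 in the superficial fl/fl skin. The highest single receptor gene had 95 and 37 UMIs in the same order. Fmod, whose product binds type I collagen and restrains fibril thickening, had 54 and 38 UMIs in all and was read only as a low level in both sections.

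Relative to Col1a1, Dcn, Lum and Prelp had nearly the same ratio at the surface and in the depth of the fl/fl section, while Bgn, Ogn, Aspn and Vcan had a higher one in the depth. In the fl/fl section Dcn had 32.7, 34.4, 39.0, 37.0 and 29.2 UMIs per 100 Col1a1 UMIs from step 0 to step 4 and over. The log2 ratio of deep to superficial skin was -0.10 for Dcn (-0.24 to 0.04), -0.07 for Lum (-0.25 to 0.11) and -0.08 for Prelp (-0.41 to 0.26), and all 3 intervals include 0. Bgn went from 3.92 per 100 Col1a1 UMIs at step 0 to 10.6 at step 4 and over, a deep to superficial log2 ratio of 0.84 (0.54 to 1.13). Ogn had a ratio of 1.93 (1.06 to 2.81), Aspn 1.63 (0.79 to 2.47) and Vcan 0.92 (0.29 to 1.55). The value of Aspn was not shared along the section: when the section was divided along its length into 4 segments, segment 1, at the left end, held 11 of the 12 superficial Aspn UMIs and had a ratio of -0.24, and segment 4 had 4.45 on 1 superficial UMI. Ogn, with 8 superficial UMIs in segment 1 and 3 in segment 4, had 0.98 and 3.12 there, and neither gene had a superficial UMI in segments 2 and 3. Bgn had 0.86, 0.27, -0.24 and 1.28 from segment 1 to 4, on 47, 2, 19 and 36 superficial UMIs. Its direction was thus not shared by segment 3.

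Most genes were lower in the depth when set against Col1a1, with a median log2 ratio of -1.36 in the fl/fl section and -1.28 in the K14-Cre section. Of the members, 2 were at least 2-fold higher per Col1a1 in deep than superficial fl/fl skin (4.34% of 11721 genes), and none was at least 2-fold lower (64.6% of genes). In the K14-Cre section 3 were at least 2-fold higher (4.41% of 11565 genes), namely Ogn at 1.72 (0.88 to 2.56), Aspn at 1.77 (0.85 to 2.69) and Vcan at 1.57 (0.46 to 2.67), and none was at least 2-fold lower (59.9%). These 3 had superficial counts at the level of the receptor genes in this section. Dcn was lower per Col1a1 in the depth, at -0.30 (-0.48 to -0.12), and Lum higher, at 0.47 (0.16 to 0.78). Lum was at 0.58, -0.33, 1.25 and 0.36 from segment 1 to 4 of this section. Bgn at 0.21 (-0.15 to 0.57) and Prelp at 0.38 (-0.17 to 0.93) had intervals that include 0.

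Type VI collagen, which forms beaded filaments around cells and to which decorin and biglycan bind, did not share the direction of Bgn in the fl/fl section. Col6a1 and Col6a2, named here after their values were seen, had deep to superficial log2 ratios per Col1a1 of -0.72 (-0.96 to -0.47) and -0.72 (-0.90 to -0.54) there, and 0.61 (0.20 to 1.02) and 1.36 (1.02 to 1.70) in the K14-Cre section. Col1a2 and Col3a1, the partner chain and the companion fibril of type I collagen, stayed at -0.11 and -0.10 in the fl/fl section and at -0.13 and 0.16 in the K14-Cre section.

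**Figure D3:**
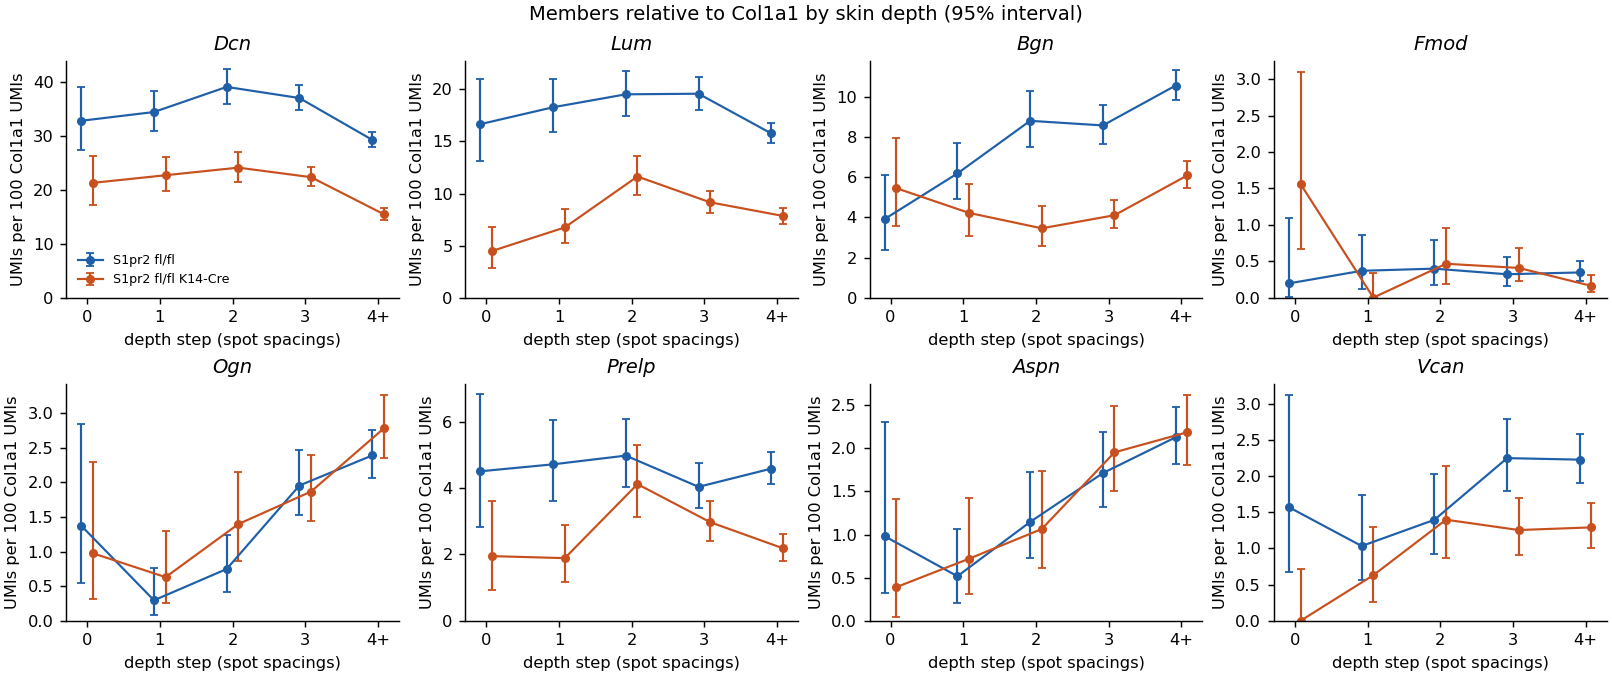
UMIs of each member per 100 Col1a1 UMIs (vertical axes, linear) by depth step (horizontal axis, in spot spacings) in the fl/fl section (blue) and the K14-Cre section (orange), with 95% intervals. The lines of Dcn, Lum and Prelp lie apart between the sections, although the Prelp intervals overlap at steps 0, 2 and 3. Without segment 4, the right-hand end of the K14-Cre section, Dcn was at 35.1 and 42.1 at steps 0 and 1, against 32.7 and 34.4 in the fl/fl section. The lines of Ogn and Aspn run close together and are highest at step 4 and over, Ogn at 2.39 and 2.78 and Aspn at 2.13 and 2.19.

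With finer steps, Dcn and Bgn went in opposite directions relative to Col1a1 from step 2 to step 7 of the fl/fl section. In the fl/fl section Dcn went from 39.0 per 100 Col1a1 UMIs at step 2 (35.9 to 42.4) to 23.5 at step 7 (20.4 to 27.0), over which Bgn went from 8.82 (7.52 to 10.3) to 13.9 (11.6 to 16.5). At 8 steps and over Dcn was at 31.4 and Bgn at 11.9. From step 2 to step 7 of the K14-Cre section Dcn went from 24.1 (21.4 to 27.0) to 13.5 (9.18 to 19.2). It was lowest at step 4, with 11.4. Bgn went from 3.46 (2.57 to 4.56) to 4.62 (2.35 to 8.20), and these intervals overlap. In the K14-Cre section the 105 spots at 8 steps and over, which include the piece under the middle of the section on the map, had the highest values per 100 Col1a1 UMIs of that section: 37.4 for Dcn, 17.7 for Lum, 11.4 for Bgn and 7.69 for Aspn. Col1a1 was at 1566 CPM in those spots, against 6309 at step 3. The high values per Col1a1 there thus stand beside a low level of the reference, and Dcn in CPM was at 585, under its 1407 at step 3.

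Between the whole sections, Dcn, Lum, Bgn and Prelp were lower in CPM in the K14-Cre skin and Ogn and Aspn were higher. Lum stood at 516 CPM (497 to 536) in the fl/fl section and 360 (339 to 383) in the K14-Cre section, a log2 ratio of -0.52 (-0.62 to -0.41). Bgn stood at 275 CPM against 214, Dcn at 975 against 826, Prelp at 134 against 111 and Vcan at 59.3 against 50.3, or log2 ratios of -0.37, -0.24, -0.27 and -0.24, and of these only the interval of Vcan (-0.53 to 0.05) included 0. Ogn was at 55.2 CPM against 88.6, a log2 ratio of 0.68 (0.43 to 0.93), and Aspn at 51.2 against 75.6, a log2 ratio of 0.56 (0.30 to 0.82). Fmod, at 10.2 and 13.4 CPM, had an interval from -0.25 to 1.01.

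None of the 8 differed between the sections by 2-fold or more in CPM, where 26.2% of the 16828 genes compared were at least 2-fold higher and 4.78% at least 2-fold lower in the K14-Cre section. The median log2 ratio was -0.24 over the members and 0.34 over all genes compared. The TMM factor, another scaling of the totals, moves every log2 ratio by -0.37, which leaves Ogn at 0.31 and Aspn at 0.19. Aspn did not keep its direction when each spot was thinned to 1000 UMIs, with a log2 ratio of -0.14. Within 4 steps of the surface, which leaves out the deepest muscle, Prelp was at 0.01 and Vcan at 0.07.

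Col1a1 was higher in the K14-Cre section, at 4267 CPM against 2966. Counted per Col1a1 UMI, Dcn, Lum, Bgn, Prelp and Vcan, which had lower CPM in that section, were therefore further apart. Ogn, Aspn and Fmod were closer together. Dcn stood at 32.9 UMIs per 100 Col1a1 UMIs in the fl/fl section (31.9 to 33.9) and 19.4 in the K14-Cre section (18.5 to 20.2). Lum had 17.4 against 8.44, Bgn 9.28 against 5.01 and Prelp 4.52 against 2.61. The log2 ratios per Col1a1 were -0.76 for Dcn, -1.04 for Lum, -0.89 for Bgn, -0.79 for Prelp and -0.76 for Vcan, beside 0.16 for Ogn (-0.09 to 0.40), 0.04 for Aspn (-0.22 to 0.30) and -0.14 for Fmod. Lum was the 1 member at least 2-fold lower (15.6% of 16827 genes), and no member was at least 2-fold higher (13.7%). Summed, the 8 members had 70.02 UMIs per 100 Col1a1 UMIs against 40.8, a log2 ratio of -0.78 (-0.84 to -0.72).

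**Figure D4:**
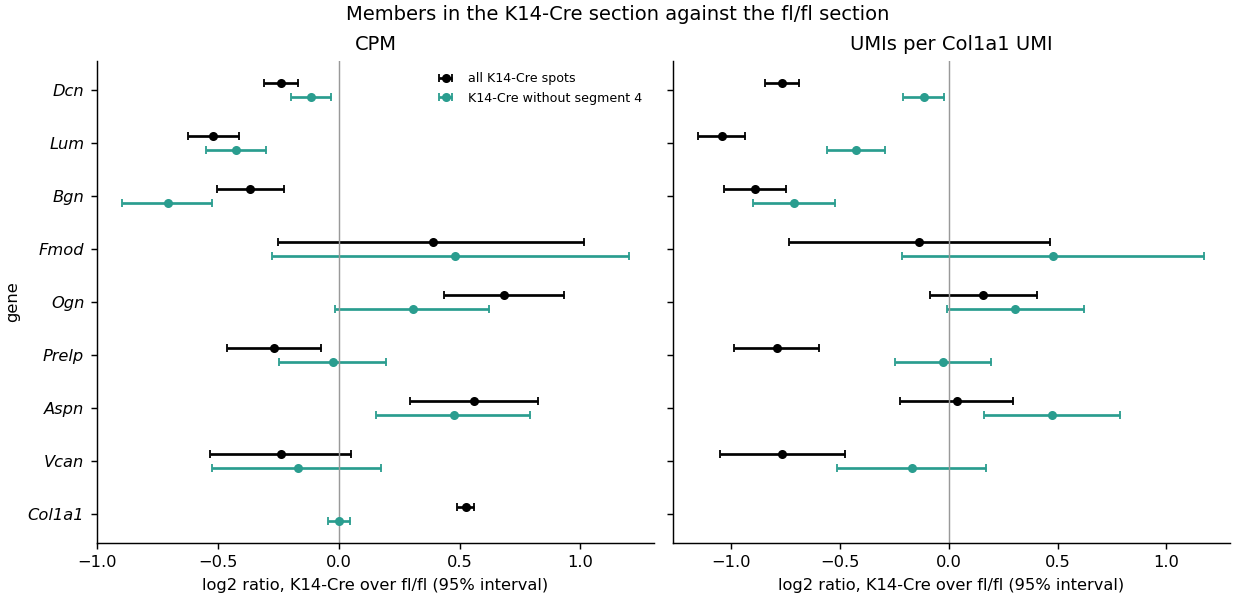
Log2 ratio of the K14-Cre to the fl/fl section (horizontal axes, with 95% intervals) for each member and Col1a1 in CPM (left) and per Col1a1 UMI (right), with all spots (black) and without segment 4, the right-hand end, of the K14-Cre section (green). Without segment 4 Col1a1 was at 0.00, Dcn per Col1a1 moved from -0.76 to -0.12 and Lum from -1.04 to -0.43, and Bgn from -0.89 to -0.71.

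The difference per Col1a1 lay largely in the right-hand end of the K14-Cre section. When each section was divided along its length into 4 segments with equal numbers of spots, which are not replicates, Col1a1 stood at 2942, 2995, 2981 and 6150 CPM in the K14-Cre section and at 3443, 3023, 3285 and 2406 in the fl/fl section. Segment 4 of the K14-Cre section held 58.8% of the Col1a1 UMIs of that section, against 38.9% of the members' UMIs. The summed members had 27.0 UMIs per 100 Col1a1 UMIs in this segment and 60.4 in the other 3 together, where the fl/fl segments had 73.8, 61.1, 56.1 and 76.9. The low ratio of that end was measured at every depth, from 24.3 to 30.5 over the 5 steps, against 58.6 to 67.7 in the rest of the section.

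In CPM the collagens were higher in that end and the members were divided. Dcn was at 716 CPM in segment 4 and 902 in the others, Lum at 325 and 385, Vcan at 46.5 and 52.8 and Prelp at 81.9 and 132, and Bgn at 279 and 169, Ogn at 118 and 68.3 and Aspn at 81.9 and 71.2 were higher in segment 4. Col1a2 was at 8136 CPM there and 3849 in the others. The same end held most of the transcripts of developmental muscle: the 6 genes of that list found in the files (of 7, among them the embryonic myosin gene Myh3) summed to 1161 CPM in segment 4, to 86.7, 237 and 245 in the other 3 segments and to 14.3 to 36.7 in the fl/fl segments. Its part in the difference was not tested. Without segment 4 Col1a1 had a log2 ratio between the sections of 0.00 (-0.04 to 0.05), and the members had -0.43 for Lum (-0.56 to -0.30), -0.71 for Bgn (-0.90 to -0.52), -0.12 for Dcn (-0.21 to -0.02), -0.03 for Prelp (-0.25 to 0.20) and -0.17 for Vcan (-0.51 to 0.17) per Col1a1. Ogn was then at 0.30 (-0.01 to 0.62) and Aspn at 0.47 (0.16 to 0.79).

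**Figure D5:**
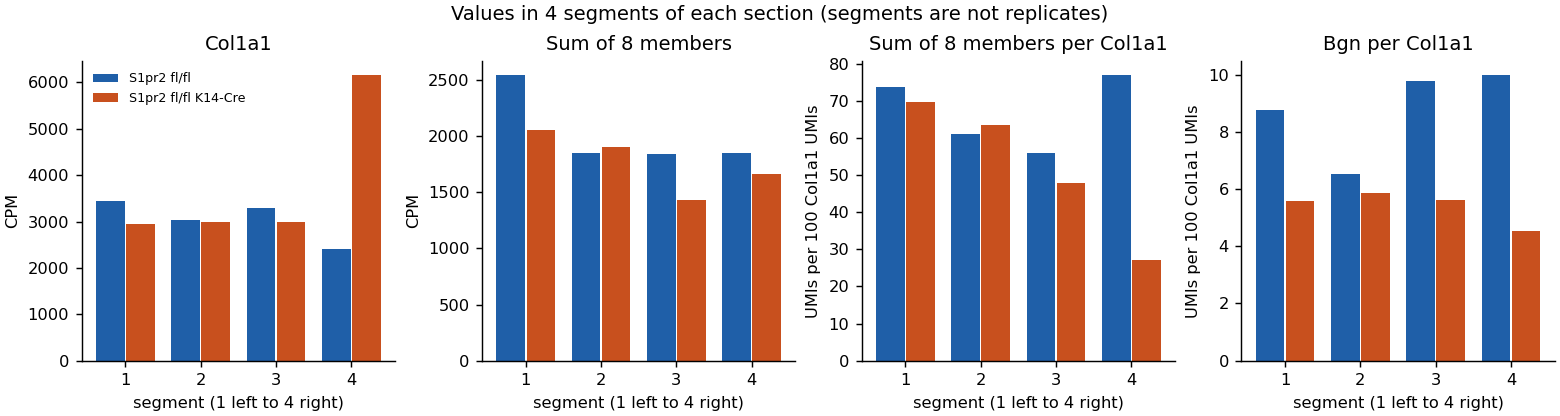
Col1a1 and the summed members in CPM, and the summed members and Bgn per 100 Col1a1 UMIs (bars from 0), in the 4 segments of the fl/fl section (blue) and of the K14-Cre section (orange), numbered from left to right. Each bar is 1 value without an error. Segment 4 of the K14-Cre section stands out with 6150 CPM of Col1a1. Bgn per Col1a1 was below every fl/fl segment in all 4, as were 8.83% of 16827 genes.

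Lum in CPM and Bgn per Col1a1 were the members whose segments did not overlap between the sections, 1 of 8 in each measure. Such numbers do not set the members apart from the genes at large, whose shares follow. Lum stood at 624, 595, 455 and 451 CPM in the fl/fl segments and at 421, 444, 300.5 and 325 in the K14-Cre segments, so every fl/fl segment was above every K14-Cre segment (8.37% of 16828 genes did the same). Per 100 Col1a1 UMIs, Bgn had 8.77, 6.52, 9.77 and 9.97 in the fl/fl segments and 5.58, 5.87, 5.63 and 4.54 in the K14-Cre segments, again without overlap (8.83% of 16827 genes). In CPM Bgn overlapped, with 197 to 321 against 164 to 279, and per 100 Col1a1 UMIs Lum overlapped, with 13.9 to 19.7 against 5.28 to 14.8. The second fl/fl segment was shallow, with a median of 688 UMIs per spot, and its Bgn value rests on 53 UMIs. Ogn was higher in the K14-Cre segment in 14 of 16 pairs of segments in CPM and Aspn in 13, and Dcn in 6. No member had all 4 K14-Cre segments above all fl/fl segments, as 11% of genes had in CPM and 4.74% per Col1a1.

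The sections were also compared step by step, which fixes the distance from the surface but not the tissue content. At step 3 the keratinocyte list was at 31813 CPM in the fl/fl section and 5325 in the K14-Cre section. In the same order, the adipocyte list was at 1716 and 6335 CPM and the skeletal muscle list at 9211 and 43118. In CPM, Dcn differed from one section to the other by a log2 ratio of 0.37 (0.01 to 0.73) at step 0, 0.39 (0.16 to 0.61) at step 1, 0.01 at step 2, -0.03 (-0.16 to 0.10) at step 3 and -0.77 (-0.89 to -0.66) at step 4 and over. The lower value of Dcn was thus found in the deepest step, where the skeletal muscle list was at 133319 CPM against 46142. Lum was lower at the surface and in the depth, with -0.90 (-1.63 to -0.22), -0.45, -0.04, -0.40 and -0.86 (-1.02 to -0.70), and the values did not differ beyond counting error at step 2 alone. Bgn went from 1.47 (0.59 to 2.38) at step 0, on 20 and 28 UMIs, to -0.64 (-1.12 to -0.19) at step 2 and -0.65 (-0.84 to -0.47) at step 4 and over. Of its 28 UMIs at step 0 of the K14-Cre section, 21 lay in segment 4. The rest of that section had 7 there, or 37.0 CPM, against 28.1 in the fl/fl section. Ogn was higher at step 2, with 1.61 (0.58 to 2.67), at step 3, with 0.63 (0.13 to 1.14), and at step 4 and over, with 0.36 (0.05 to 0.68). Aspn was higher at step 3, with 0.89 (0.37 to 1.41). Leaving out segment 4 of the K14-Cre section put Ogn at 73.6 CPM at step 3 and 92.0 at step 4 and over. These are under the 75.9 and 99.0 of the fl/fl section. Ogn at step 2, with 54.9 CPM on 10 UMIs against 19.2, and Aspn at step 3, with 110 against 66.6, were still higher. Dcn without segment 4 was at 275, 883, 1313 and 1607 CPM from step 0 to step 3, above the 234, 525, 1002 and 1436 of the fl/fl section. At step 4 and over it was lower, at 674 against 1212. Lum was then higher at step 2, at 659 CPM against 502, and lower at the other steps.

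Vcan had 0 UMIs at step 0 of the K14-Cre section (0 to 10.3 CPM) and 8 UMIs in the fl/fl section, at 11.2 CPM (4.85 to 22.1), and a difference was not detectable at this depth. Fmod had 1, 5, 8, 12 and 28 UMIs from step 0 to step 4 and over of the fl/fl section and 8, 0, 7, 14 and 9 in the K14-Cre section, too few to order the steps. At step 3 no member with at least 30 UMIs was 2-fold higher or lower in CPM (9.59% and 13.2% of 9027 genes). Per Col1a1, Lum at -1.10 (-1.30 to -0.89) and Bgn at -1.06 (-1.36 to -0.77) were at least 2-fold lower at that step, as were 38.5% of 9026 genes, whose median was -0.77, and no member was at least 2-fold higher (2.63%). Without segment 4 of the K14-Cre section neither was 2-fold lower, with Lum at 12.7 UMIs per 100 Col1a1 UMIs at step 3 against 19.6 in the fl/fl section and Bgn at 4.50 against 8.59.

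Groups of spots rich in the marker genes of other tissues gave the surroundings in which the members were found. Each group is the 25% of spots highest in CPM of its list among those with at least 500 UMIs (272 spots in the fl/fl section and 236 in the K14-Cre section), and groups share spots. In the spots rich in skeletal muscle genes of the fl/fl section, Bgn had 12.8 UMIs per 100 Col1a1 UMIs (11.4 to 14.3), against 9.71 in adipocyte-rich spots (8.85 to 10.6) and 6.63 in keratinocyte-rich spots (5.35 to 8.13). Aspn had 2.74, 1.90 and 0.669 and Ogn 2.998, 2.58 and 0.402 in the same order, so all 3 were highest per Col1a1 in the muscle-rich spots. Prelp, with 5.29, 4.94 and 3.88, and Vcan, with 2.41, 2.36 and 1.14, shared this order. In CPM Bgn, Ogn and Aspn were lower in the muscle-rich than in the adipocyte-rich spots. Bgn was at 339 against 468, Ogn at 79.3 against 125 and Aspn at 72.5 against 91.6, beside Col1a1 at 2647 against 4824. Dcn went another way, with 27.6 per 100 Col1a1 UMIs in muscle-rich, 31.2 in adipocyte-rich and 28.4 in keratinocyte-rich spots. So did Lum, with 15.0, 16.4 and 15.1.

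The order for Bgn, Ogn, Aspn, Prelp and Vcan was the same in the K14-Cre section, and Lum shared it there. Bgn had 6.93 per 100 Col1a1 UMIs in muscle-rich spots (5.71 to 8.34), 5.64 in adipocyte-rich and 4.73 in keratinocyte-rich spots (3.55 to 6.19). Its intervals overlap. Aspn had 3.64 UMIs per 100 Col1a1 UMIs in muscle-rich spots (2.78 to 4.68), 1.91 in adipocyte-rich spots (1.46 to 2.45) and 0.592 in keratinocyte-rich spots (0.237 to 1.22), and Ogn 3.98, 2.70 and 1.35. Prelp had 3.58, 3.52 and 2.70, Vcan 2.25, 1.55 and 0.845, and Lum 11.8, 9.88 and 8.28 in the same order of spots. Fmod had 0 UMIs in the muscle-rich spots of this section. Muscle-rich spots also held little Col1a1, at 2385 CPM against 4559 in the adipocyte-rich spots, while in CPM Aspn was at 86.8 and 87.0, Ogn at 95.02 and 123 and Bgn at 165 and 257. In spots chosen for high Col1a1 itself, a choice that lowers values per Col1a1 by construction, the summed members had 57.0 UMIs per 100 Col1a1 UMIs in the fl/fl section and 25.9 in the K14-Cre section.

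Among the other genes of the matrix and of proteoglycan synthesis, many rare ones were higher in the K14-Cre section, as were 26.2% of all genes compared. Among the 9 other small leucine-rich genes that reached 30 UMIs, 6 were 2-fold higher or more in CPM and none was 2-fold lower, with a median log2 ratio of 1.14. Omd and Cd44 are named here after their values were seen. Omd, between Aspn and Ogn in the genome, had 32 and 38 UMIs (6.05 and 13.4 CPM), against the means of 11.7 and 17.0 UMIs for a receptor gene. In CPM the receptor genes averaged 2.21 per gene in the fl/fl section and 5.98 in the K14-Cre section, so this background was itself higher there. At most 22 and 34 UMIs were counted for 95% of them. The 2-fold higher genes of these lists were counted without taking this background off. Of the other hyaluronan-binding proteoglycans and link proteins, 7 of 9 were at least 2-fold higher. Cd44, the main hyaluronan receptor at the cell surface, was the abundant one among these 9 and was lower, at 595 CPM against 378. Of 22 enzymes that build glycosaminoglycan chains, 2 were at least 2-fold higher and none lower, with a median of 0.34, equal to that of all genes compared. Of 16 basement membrane and cell surface proteoglycans 1 was at least 2-fold lower and none higher. Of 13 proteases that cut proteoglycans 4 were higher and none lower, and of 7 hyaluronan synthases and hyaluronidases 3 were higher and none lower. Over all genes compared, 26.2% were at least 2-fold higher and 4.78% at least 2-fold lower.

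The genes of these lists with the lowest and highest ratio per Col1a1, among those with at least 200 UMIs, were of mixed function. Prg4 (lubricin, a lubricant of joints and gliding tissue) was at 31.4 CPM in the fl/fl section and 15.8 in the K14-Cre section, Mmp14 (a membrane-bound collagenase) at 360 and 217, and Podn (podocan, a small leucine-rich protein) at 87.7 and 53.1. Chpf, which takes part in chondroitin chain polymerisation, was at 18.0 and 44.3 CPM, Gpc3, a glypican that binds Hedgehog and Wnt ligands, at 28.0 and 54.5, and B3galt6, which adds a galactose of the linker between core protein and chain, at 19.1 and 36.9. Of the other fibrillar and type VI collagens, Col5a1 had the largest log2 ratio in CPM at 1.25, Col1a2 was at 0.61, Col3a1 at 0.38, and Col6a1 and Col6a2 at 0.03 and 0.18. Without segment 4 of the K14-Cre section Col1a2 was at 0.07 and Col3a1 at 0.12.

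Over 20 windows per section (depth step by segment), the members varied together to different degrees. These correlations of log2(CPM + 10) are given as descriptions, since windows of one section share the library and neighbouring tissue. Ogn and Aspn had r of 0.94 in the fl/fl section and 0.69 in the K14-Cre section. Dcn and Prelp had 0.88 and 0.92, and Dcn and Lum, neighbours in the genome, 0.80 and 0.92. Prelp and Fmod, also neighbours, had 0.39 and 0.35. Fmod had 54 and 38 UMIs in all, too few over 20 windows to judge how it varied with other genes. Some pairs that are not neighbours were also high, with 0.89 and 0.80 for Lum and Vcan and 0.83 and 0.79 for Aspn and Vcan. Ogn and Dcn were at 0.71 and 0.34, and Fmod was at or under 0.66 with every member in both sections. With Col1a1, Lum had 0.96 and 0.69 and Bgn 0.94 and 0.58.

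Of 2785 genes with at least 200 UMIs in each section, ranked by the lower of their r in the 2 sections, the 2 most like each member were, for Dcn, Prelp and Thbs1 (thrombospondin 1, 0.86 in both sections), and for Prelp, Dcn and Lum. Lum was most like Mrc1, a macrophage mannose receptor (0.92 and 0.94), and Arhgdib. Bgn was most like Prrx1, a transcription factor of mesenchymal cells (0.88 and 0.89), and Apod. Ogn was most like Eln, which encodes elastin (0.84 and 0.85), and Myom2, which encodes a muscle M-band protein. Aspn was most like Dpt, which encodes dermatopontin (0.87 and 0.83), and Mgp, and Vcan like Pi16, a marker of fascia fibroblasts (0.96 and 0.88), and Sparc. For Fmod, which was under the 200 UMIs asked of the other genes, r was at 0.49 and 0.48 with Ifi205 and 0.55 and 0.48 with Rreb1.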

How the data were processed

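Spatial transcript counts of 2 FFPE sections (Visium CytAssist) were used as deposited: the authors' UMI counts per gene and spot, not normalised. Space Ranger 3.0.0 was recorded with the counts themselves, and the mm10 build in the submitters' processing notes. No columns of the authors' own comparisons were used. Tissue spots outside the connected section (79 in the fl/fl and 11 in the K14-Cre section, groups of fewer than 20 spots) were left out. Counts were summed over spots and divided by the UMI total of the same spots (CPM) or by Col1a1 UMIs. Intervals were exact Poisson for CPM, conditional binomial for ratios, and on the log scale for ratios of values per Col1a1. A gene was compared with at least 30 UMIs and counted from 2-fold on. The sections share 357 spot barcodes, which are array positions. The members, gene lists and depth steps were chosen with earlier results of these data known. Besides the members and Col1a1, the 6 pathway genes at either end of the ratio per Col1a1 between sections (3 each, from 200 UMIs on) and 2 like genes per member were named. The computation was tested on simulated data. Python 3.11.15, numpy 2.4.6, scipy 1.17.1, pandas 2.3.3, R 4.3.3 and edgeR 4.0.16 (TMM factors only) were used. Alternatives changed the spots, the read depth, the background, the scaling, the reference collagen and the measure of depth.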

Additional observations from a re-analysis of the deposited data

Results flagged for a closer look

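Relative to Col1a1, 3 members differed in direction between superficial and deep skin in the 2 sections. Lum had a log2 ratio of deep to superficial skin of -0.07 in the fl/fl section and 0.47 in the K14-Cre section, Prelp of -0.08 and 0.38, and Fmod of 0.07 and -0.95. With 1 section per genotype these differences were not tested, and of the 6 values only that of Lum in the K14-Cre section had a counting interval that leaves out 0. The log2 ratio of the K14-Cre section minus that of the fl/fl section was 0.54 for Lum (0.18 to 0.90). It was 0.46 for Prelp (-0.18 to 1.10) and -1.02 for Fmod (-2.72 to 0.68). From segment 1 to 4 of the K14-Cre section, Prelp had log2 ratios of 0.10, 0.25, -0.35 and 0.89. These rest on 14, 5, 4 and 8 superficial UMIs. Without segment 4 Prelp stood at 4.73, 4.16, 6.66, 4.74 and 3.50 UMIs per 100 Col1a1 UMIs from step 0 to step 4 and over. Lum had 0.58, -0.33, 1.25 and 0.36 in the same segments, so its direction was not shared by segment 2. Bgn had the same direction in both sections, with a difference of -0.63 (-1.09 to -0.16). These intervals cover counting error only. Of the 75 superficial Bgn UMIs of the K14-Cre section, 54 lay in segment 4, where its log2 ratio was -0.07. Segments 1 and 2 had 0.28 and 0.05, on 13 and 8 superficial UMIs, and segment 3 had 0 such UMIs. The part of segment 4 in the difference of Bgn was not tested.

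In the fl/fl tissue spots outside the connected section, which the comparisons did not use, 52 UMIs of the members were counted.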

How the results depend on the processing

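No paired analysis was possible because each genotype has 1 section. For the summed members, the log2 ratio of the K14-Cre to the fl/fl section in CPM was -0.26, and it was -0.37 with spots thinned to 1000 UMIs, -0.63 with TMM factors, -0.33 as a mean over spots, -0.16 with equal weight on each depth step and -0.11 within 4 steps of the surface. Per Col1a1 UMI the ratio of -0.78 became -0.55 in thinned spots, -0.87 within 4 steps and -0.21 without segment 4 of the K14-Cre section. The deep to superficial ratio per Col1a1 of 0.11 in the fl/fl section became -0.051 in thinned spots, -0.029 with depth counted down each array column and 0.31 without Dcn. In the K14-Cre section 0.12 became -0.46 with array columns, -0.47 with depth from keratinocyte-rich spots, 0.58 without Dcn and -0.069 without segment 4. The settings within 4 steps and without segment 4 were chosen after seeing the data. The cause was not tested. For single members, 207 of 272 alternative values stayed within the counting interval of the main value and 65 moved out of it, with 26 changes of sign. In CPM between the sections, Aspn moved to -0.14 in thinned spots, Fmod to -0.11 with the receptor background taken off, and Prelp to 0.01 and Vcan to 0.07 within 4 steps. Ogn and Aspn were higher per Col1a1 in the depth of both sections under every alternative that was run, although Aspn was at -0.24 within segment 1 of the fl/fl section, which holds 11 of its 12 superficial UMIs. Low counts limit Fmod at all depths and Ogn, Aspn and Vcan near the surface.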
